A study of Mus musculus with 8 samples.

Results

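The subunits of Mediator and of cohesin, with the proteins that load, hold, release and stop cohesin and with Ctcf, were followed across 8 RNA-seq libraries of mouse embryonic stem cells. Members are all genes with these names: every symbol of the form Med plus a number, with or without a final l, and Cdk8, Cdk19, Ccnc, Smc1a, Smc3, Rad21, Stag1, Stag2, Nipbl, Mau2, Wapal, Pds5a, Pds5b and Ctcf. This gave 44 of the 38610 symbols in the table, of which 33 belong to Mediator and 11 to cohesin, its partners and Ctcf. All libraries came from CJ9, an embryonic stem cell line of strain 129S4/SvJae, kept in serum-containing medium without leukemia inhibitory factor (LIF), the cytokine that holds these cells in self-renewal, and harvested on day 4. The groups were wild type (WT, 2 libraries), Evx1as knockout (Evx1as KO, 3 libraries) and EVX1 knockout (EVX1 KO, 3 libraries), the knockouts having been made by CRISPR. Evx1as is the long noncoding RNA transcribed antisense to Evx1, and EVX1 is a homeodomain protein that marks the streak of the gastrula. The sources used here give neither the edited positions nor whether a group is 1 clone or several, and nothing says that the libraries of a group came from separate cultures, so p-values measure the spread between these libraries, which may be technical. The design text asks which genes differ between wild-type and knockout cells during differentiation.

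Mediator is the large coactivator that joins transcription factors bound at enhancers to RNA polymerase II at promoters. Its head and middle contact the polymerase, its tail meets activators, Med14 is the scaffold between them, and a separable kinase module (Cdk8 or Cdk19, cyclin C, Med12 or Med12l, Med13 or Med13l) attaches reversibly. Cohesin is a ring of Smc1a, Smc3 and Rad21 with Stag1 or Stag2, is loaded by Nipbl and Mau2, is released by Wapal with Pds5a or Pds5b, and extrudes chromatin loops that Ctcf holds in place. In embryonic stem cells Mediator, cohesin and Nipbl are known to occupy the same active enhancers and promoters, and both complexes have been linked to the action of enhancer-derived and other noncoding RNAs.

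The promoters of 3 members that the results below turn on are shown first: Wapal and Med4, both on chromosome 14 and the members that differed most between the 2 knockouts, and Med20, which was lower in Evx1as KO than in either other group. Each runs from 250 bases before to 50 bases after the start of transcription on the plus strand, in RefSeq on GRCm38.p6. Capitals mark matches, on either strand, to the motifs named below. The Wapal promoter lies at chr14:34673678-34673977, the Med4 promoter at chr14:73509799-73510098 and the Med20 promoter at chr17:47611335-47611634.
Wapal: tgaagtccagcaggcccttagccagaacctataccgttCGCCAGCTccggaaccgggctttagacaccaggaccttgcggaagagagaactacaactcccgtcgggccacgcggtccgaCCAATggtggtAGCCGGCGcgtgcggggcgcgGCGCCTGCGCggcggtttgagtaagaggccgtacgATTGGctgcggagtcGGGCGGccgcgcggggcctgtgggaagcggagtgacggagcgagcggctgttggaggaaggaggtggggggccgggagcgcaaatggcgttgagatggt
Med4: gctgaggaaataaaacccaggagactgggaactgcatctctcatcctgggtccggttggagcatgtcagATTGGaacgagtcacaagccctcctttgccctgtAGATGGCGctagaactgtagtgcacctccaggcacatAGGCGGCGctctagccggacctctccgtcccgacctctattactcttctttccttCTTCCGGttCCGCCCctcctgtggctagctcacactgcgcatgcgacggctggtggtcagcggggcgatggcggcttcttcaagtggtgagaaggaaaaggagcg
Med20: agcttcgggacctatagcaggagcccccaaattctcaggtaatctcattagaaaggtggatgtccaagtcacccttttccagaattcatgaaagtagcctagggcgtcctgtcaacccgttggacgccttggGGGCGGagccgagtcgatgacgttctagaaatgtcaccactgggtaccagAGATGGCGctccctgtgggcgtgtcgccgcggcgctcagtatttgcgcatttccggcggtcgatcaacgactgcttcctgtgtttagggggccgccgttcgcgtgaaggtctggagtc

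These stretches hold 67.0%, 58.0% and 57.0% G and C in that order. Of the 44 members, 36 had an entry, with 41 promoters among the 32851 in the RefSeq table, and 300 bases were searched in each. Members' promoters had a median of 59.0% G and C against 52.7% for all promoters, and a median ratio of observed to expected CpG of 0.849 against 0.384. The GC box GGGCGG was present in 68.3% of members' promoters and 35.7% of all, and the ETS-type site CCGGAAG in 22.0% and 8.86%. The Nrf1-type palindrome (GCGCA, any base, GCGC) stood in 17.1% and 4.60%, and AGNNGGCG, a loose form of the core bound by Ctcf, in 43.9% and 24.0%. CCAAT stood in 39.0% and 37.4%, TATAAA stood in 7.32% and 13.6%, and the cyclic AMP response element TGACGTCA in 2.44% and 1.79%. Wapal carried 2 CCAAT boxes, 1 GC box, 1 Nrf1-type match and 2 loose Ctcf cores, Med4 carried 1 CCAAT box, 1 GC box, 1 ETS-type match and 2 loose Ctcf cores, and Med20 carried 1 GC box and 1 loose Ctcf core. A match describes the letters and is no measure of binding. The background was all promoters, whether or not the gene was expressed here, and was not matched for G and C or CpG. These shares therefore do not show a feature particular to Mediator and cohesin genes.

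Values are FPKM, a fragment count divided by transcript length and by library size, so levels of different genes can be set side by side. Evx1as stood at 5.36 and 6.75 FPKM in WT, 0.0549, 0.104 and 0.0485 in Evx1as KO and 5.01, 8.81 and 7.39 in EVX1 KO, so the Evx1as KO label was borne out. Evx1 RNA was between 20.8 and 31.7 in WT and EVX1 KO and between 0.541 and 3.84 in Evx1as KO, so transcript level does not check the EVX1 KO label. Absolute depth is unknown, and depth relative to WT 1, read from the commonest ratio of low values, ranged from 0.863 to 1.19. In each library other than WT 1 only 10.8% to 13.5% of 1062 low-valued genes lay at that ratio, so it is a rough estimate. The groups differed in cell-type markers. The summed FPKM of 9 pluripotency and epiblast genes was 502 to 627 in WT, 1050 to 1190 in Evx1as KO and 687 to 698 in EVX1 KO, and 7 of the 9 rose in Evx1as KO and 2 in EVX1 KO against WT. That of 9 primitive streak and mesoderm genes was 463 to 502, 82.6 to 209 and 466 to 528, and 8 of the 9 fell in Evx1as KO and 1 in EVX1 KO against WT. Extraembryonic endoderm markers (8 genes, with Sox7, Afp, Ttr and Amn under 1 FPKM in every library) summed to 80.4 to 91.7, 47.8 to 51.2 and 81.9 to 106, neuroectoderm markers (6 genes, with Pax6, Zic1 and Neurog2 under 1) to 66.3 to 85.1, 90.0 to 103 and 30.3 to 65.5, and fibroblast markers (9 genes, with Postn and Lum under 1) to 136 to 225, 35.2 to 49.6 and 52.9 to 97.8. These marker differences move with the same groups as the results below, their part in those results was not tested, and in bulk RNA fewer cells of a type and less RNA per cell cannot be told apart. Genes of chromosomes 8 and 14 stood apart in particular libraries, which is described with the 5 members located there.

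All 44 members were expressed. The median member stood at 14.1 FPKM, against 8.29 FPKM for the 13188 genes tested, a gene being tested where 2 or more of the 8 libraries reached 1 FPKM. Of the members, 4 averaged under 5 FPKM, 30 between 5 and 20, 7 between 20 and 50, and 3 above 50. The 3 highest were Rad21 (64.8 FPKM, mean of 8 libraries), the kleisin that closes the cohesin ring, Med25 (62.4 FPKM), a tail subunit that receives activators, and Smc1a (59.4 FPKM), a ring ATPase. The lowest were the kinase-module paralogues Med12l (1.14 FPKM), Cdk19 (1.63 FPKM) and Med13 (3.62 FPKM) and the middle subunit Med7 (3.87 FPKM). Among the 40 members at 5 FPKM or more the median SD within groups was 0.113 on the log2 scale, against 0.137 for the 8294 genes at that level, and the highest library exceeded the lowest by a median of 1.45-fold against 1.54-fold. The range over the 8 libraries stayed under 2-fold for 38 members and reached 2-fold or more for Med4, Med12l, Med21, Med22, Med31 and Wapal. Med15 and Med9 varied least, by 1.16-fold and 1.17-fold.

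**Figure D1:**
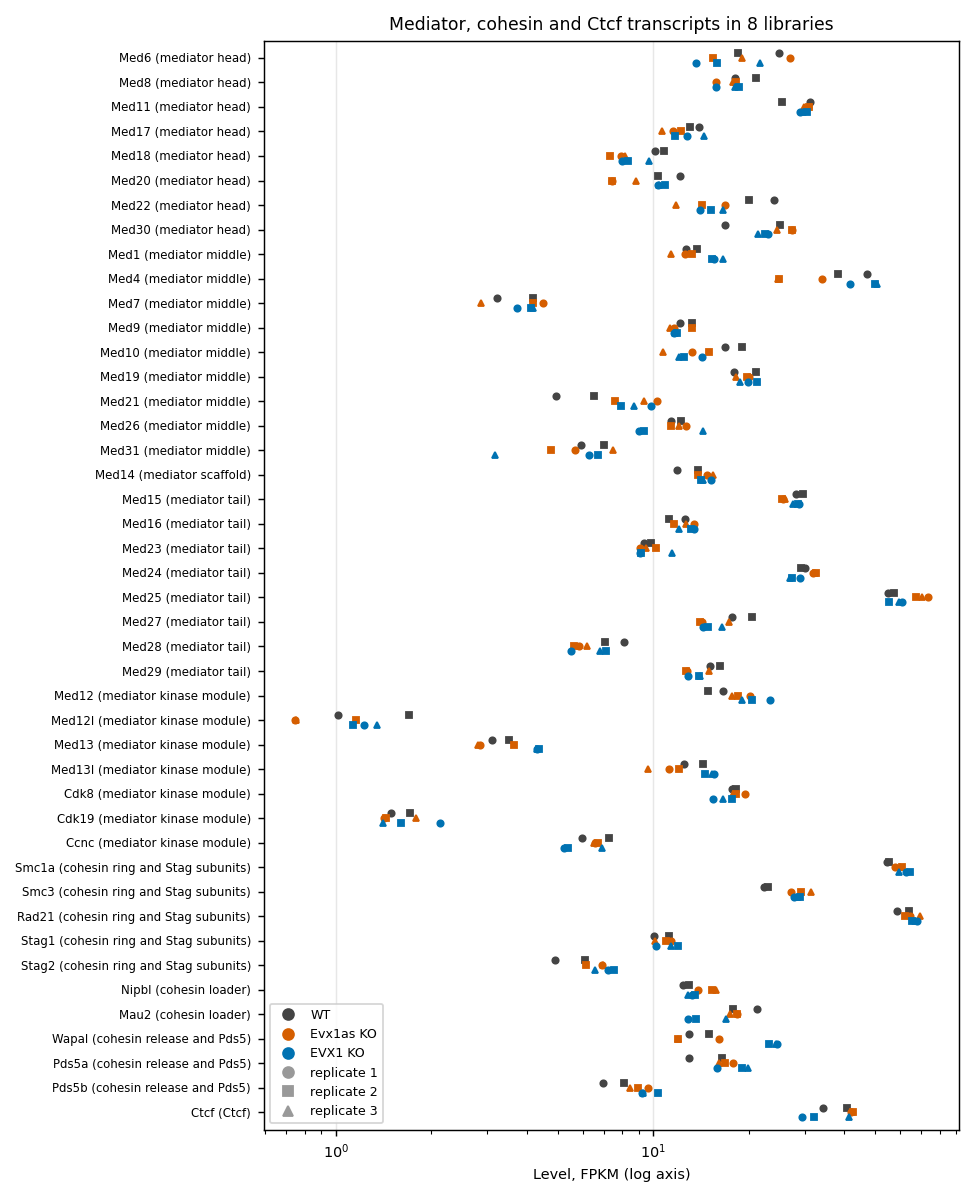
FPKM of the 44 members (log axis) in the 8 libraries, one point per library, coloured by group and ordered by functional module. Rad21, Med25 and Smc1a sit highest and Med12l and Cdk19 lowest, and for 38 of the 44 members the points span less than 2-fold.

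In Evx1as KO against WT, 3 members rose and 5 fell, which is 18.2% of the 44, while 24.5% of all genes tested were called in this comparison (13.0% higher, 11.4% lower). A call is a Benjamini-Hochberg adjusted p under 0.05 over all genes tested, from limma on log2(FPKM + 1), and fold changes below are on that scale, which understates changes of low genes. Those that fell were the head subunits Med18, Med20 and Med22 and the middle subunits Med4 and Med10, and those that rose were Med21 of the middle, Med25 of the tail and Smc3 of the cohesin ring. The median log2 change of the members was -0.01 against 0.02 for all genes, and the median absolute change 0.18 against 0.26. Evx1as KO libraries lay entirely above WT for 11 members and entirely below for 11 (25.0% each), against 29.5% and 26.2% of all genes.

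The head of Mediator docks on the polymerase. Med20, which pairs with Med18 in its movable jaw, stood at 12.2 and 10.3 FPKM in WT, 7.43, 7.40 and 8.86 in Evx1as KO and 10.4, 10.9 and 10.4 in EVX1 KO. All 3 Evx1as KO libraries were below every other library. The log2 change against WT was -0.46 ± 0.12 (SE, adjusted p = 0.0210). Its partner Med18 stood at 10.1 and 10.9 FPKM in WT, 7.93, 7.30 and 8.17 in Evx1as KO and 7.95, 8.32 and 9.71 in EVX1 KO. Both knockouts lay below WT, and the change passed the test in Evx1as KO (-0.39 ± 0.11, adjusted p = 0.0378) and missed it in EVX1 KO (-0.25, adjusted p = 0.241). The knockouts are set against the same WT libraries, so their agreement, here and below, is not made of independent observations. The share of all genes with every knockout library on the same side of WT is not given here. Med22, another head subunit, read 24.0 and 20.1 in WT, 16.8, 14.2 and 11.8 in Evx1as KO and 14.1, 15.2 and 16.6 in EVX1 KO. Here too every knockout library was under both WT libraries, with changes of -0.60 ± 0.15 in Evx1as KO (adjusted p = 0.0206) and -0.50 ± 0.15 in EVX1 KO (adjusted p = 0.116). Of the remaining head subunits none was called in any comparison. Med17, the central subunit of the head, lay between 10.6 and 14.5 FPKM, Med8 between 15.8 and 21.1, Med11 between 25.4 and 31.2, and Med6 between 13.7 and 27.0. Med17 was also below WT in every Evx1as KO library, with a change of -0.22 (limma, adjusted p = 0.191). Med30 was at 16.8 and 25.1 in the 2 WT libraries, a gap nearly as wide as its range of 16.8 to 27.4 over all libraries.

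The middle links head and tail and includes the nuclear receptor-binding Med1. Med4, a core middle subunit, stood at 47.2 and 38.3 FPKM in WT, 34.0, 25.0 and 24.7 in Evx1as KO and 41.7, 50.0 and 50.9 in EVX1 KO. Evx1as KO was below both other groups in every library, with replicates 2 and 3 lowest, and the change against WT was -0.61 ± 0.16 (adjusted p = 0.0257). Med10, a middle subunit conserved from yeast, fell from 16.9 and 19.1 in WT to 13.2, 15.0 and 10.8 in Evx1as KO (-0.45 ± 0.14, adjusted p = 0.0486) and read 14.3, 12.5 and 12.1 in EVX1 KO (-0.44, adjusted p = 0.133). Every knockout library was lower than WT, but 99.5% of the Med10 locus is overlapped by the symbol Gm17282 (2.93 FPKM), and no source used here says whether counting used strand, so the split of reads between them is uncertain. Med21, which forms the hinge of the middle with Med7, went the other way, from 4.96 and 6.49 in WT to 10.3, 7.57 and 9.34 in Evx1as KO and 9.83, 7.90 and 8.72 in EVX1 KO. All 6 knockout libraries exceeded both WT libraries, with changes of 0.58 ± 0.16 (adjusted p = 0.0277) in Evx1as KO and 0.55 ± 0.16 (adjusted p = 0.106) in EVX1 KO. Med7 itself ranged from 2.86 to 4.51 FPKM with overlapping groups. As 40.9% of the Med7 locus is overlapped by 2310031A07Rik (2.49 FPKM), its reads are uncertain too. Med9 ranged from 11.3 to 13.3, Med19 from 17.9 to 21.3 and Med31 from 3.17 to 7.46, and none of these was called in any comparison.

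The tail and the scaffold carry the surfaces that many activators bind. Med25 stood at 54.9 and 57.5 FPKM in WT, 73.3, 67.2 and 70.2 in Evx1as KO and 60.8, 55.5 and 59.6 in EVX1 KO. Evx1as KO was above every other library, by 0.32 ± 0.08 against WT (adjusted p = 0.0244). The other 7 tail subunits were not called in any comparison. Med15, Med27, Med28 and Med29 lay below WT in all Evx1as KO libraries without passing the adjusted test. Their changes were -0.16 (adjusted p = 0.170) for Med15, -0.31 (adjusted p = 0.0942) for Med27, -0.31 (adjusted p = 0.105) for Med28 and -0.21 (adjusted p = 0.186) for Med29. Med24 lay above WT in all Evx1as KO libraries, by 0.12 (adjusted p = 0.310). In EVX1 KO, Med24, Med27 and Med29 lay below WT in every library, with adjusted p from 0.201 to 0.547. The share of tail subunits entirely below WT was 50.0% in Evx1as KO, as among head subunits, and 37.5% in EVX1 KO. Over all genes it was 26.2% and 17.9%. These shares, of 8 subunits each, were not tested and are no result about the tail. Med24 ranged from 27.0 to 32.7 FPKM, Med15, the target of several activator domains, from 25.6 to 29.8, Med29 from 12.7 to 16.3, Med16 from 11.2 to 13.4 and Med23 from 9.07 to 11.5. Med14, on which the other modules assemble, read 11.9 and 13.8 in WT, 14.8, 13.9 and 15.4 in Evx1as KO and 15.2, 14.2 and 14.4 in EVX1 KO. The knockouts lay above WT by 0.18 in each case, with adjusted p of 0.219 and 0.351.

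No member of the kinase module was called against WT, in Evx1as KO (1 of 7 at an unadjusted p under 0.05 by limma) or in EVX1 KO (2 of 7). Counts at an unadjusted p, here and below, come without the share of all genes. Without that share they are no result about these genes. Med12, which activates the kinase, stood at 16.6 and 14.9 FPKM in WT, 20.2, 18.5 and 17.8 in Evx1as KO and 23.4, 20.5 and 19.1 in EVX1 KO. All 6 knockout libraries were above WT, with changes of 0.24 (adjusted p = 0.151) and 0.39 ± 0.11 (adjusted p = 0.108). The kinase Cdk8 read 17.8 and 18.2 in WT, 19.5, 18.3 and 17.8 in Evx1as KO and 15.5, 17.8 and 16.6 in EVX1 KO, and its cyclin Ccnc ranged from 5.25 to 7.26. Neither was called in any comparison.

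Among cohesin genes, Smc3 was the member called in Evx1as KO against WT. It stood at 22.3 and 23.1 FPKM in WT, 27.3, 29.3 and 31.4 in Evx1as KO and 27.9, 29.1 and 28.6 in EVX1 KO. All knockout libraries were above both WT libraries, by 0.35 ± 0.09 in Evx1as KO (adjusted p = 0.0212) and 0.32 ± 0.09 in EVX1 KO (adjusted p = 0.103). Its ring partner Smc1a read 54.4 and 55.5 in WT, 57.8, 60.8 and 60.1 in Evx1as KO and 62.4, 64.6 and 59.4 in EVX1 KO. The kleisin Rad21 read 58.5 and 64.1 in WT, 64.4, 62.2 and 69.4 in Evx1as KO and 67.6, 65.5 and 66.8 in EVX1 KO. For Smc1a the 95% confidence interval of the log2 change ran from -0.06 to 0.29 in Evx1as KO and from -0.00 to 0.35 in EVX1 KO, and for Rad21 from -0.10 to 0.28 and from -0.07 to 0.31, so changes beyond those bounds are outside the intervals for these 2 ring subunits. The loader Nipbl stood at 12.5 and 13.0 in WT, 13.8, 15.3 and 15.8 in Evx1as KO and 13.3, 13.6 and 12.8 in EVX1 KO. Evx1as KO lay above WT in every library, by 0.22, and did not pass the adjusted test (adjusted p = 0.128).

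**Figure D2:**
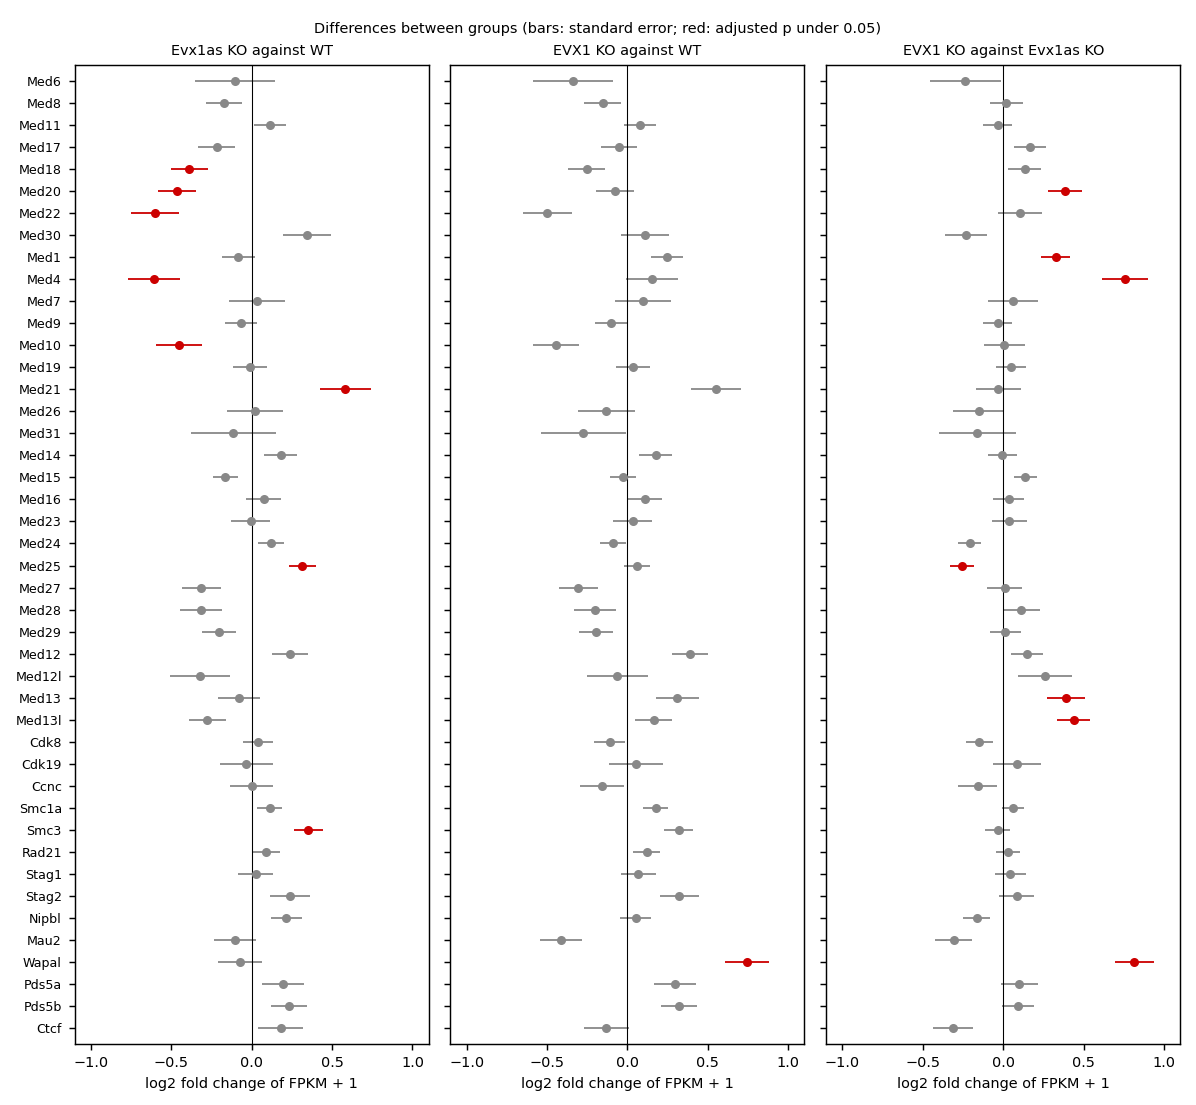
Log2 change of each of the 44 members with its standard error (bars, limma) in the 3 comparisons, by module, with called members in red. Changes lie between -0.61 for Med4 in Evx1as KO against WT and 0.81 for Wapal in EVX1 KO against Evx1as KO.

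These calls rested on particular libraries. Without WT replicate 1 no member was called in Evx1as KO against WT (0 higher, 0 lower), and without Evx1as KO replicate 3 there were 0 higher and 1 lower, which was Med20. Without Evx1as KO replicate 1 there were 1 higher and 2 lower, without replicate 2 there were 3 higher and 2 lower, and without WT replicate 2 there were 2 higher and 3 lower. Leaving out EVX1 KO replicate 2, which enters only through the shared spread, gave 3 higher and 3 lower. Over the 8 fits that left out 1 library, Med10 and Med18 each lost the call in 6 and Med25 in 4. Med4, Med20, Med21 and Smc3 each lost it in 3 and Med22 in 2. The Med10 call was also lost with a pseudocount of 0.1.

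In EVX1 KO against WT a single member was called, the cohesin release factor Wapal, which opens the ring and unloads it from chromatin. That is 2.27% of the members, beside 1.24% of all genes tested (0.690% higher, 0.554% lower). No member was called lower by limma, and 9 higher and 4 lower had an unadjusted p under 0.05. The share of all genes at that unadjusted p is not given here, so these counts are no result about the members. The median change of the members was 0.04 against 0.02 for all genes. EVX1 KO libraries lay entirely above WT for 12 members (27.3%) and entirely below for 9 (20.5%), against 21.2% and 17.9% of all genes.

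Wapal stood at 13.0 and 15.0 FPKM in WT, 16.2, 12.0 and 12.0 in Evx1as KO and 24.5, 23.3 and 24.3 in EVX1 KO. The 3 EVX1 KO libraries were above every other library and close to each other, while the remaining 5 overlapped. The change against WT was 0.74 ± 0.14 (adjusted p = 0.0424) in EVX1 KO and -0.07 (adjusted p = 0.735) in Evx1as KO. The call against WT was lost in 6 of the 8 fits that left out 1 library, with adjusted p up to 0.231 (the exceptions being the fits without replicate 1 of Evx1as KO and without replicate 3 of EVX1 KO). Pds5a and Pds5b, which hold or release cohesin together with Wapal, were not called. Pds5a read 13.0 and 16.4 in WT, 17.9, 16.8 and 16.1 in Evx1as KO and 15.9, 19.0 and 19.9 in EVX1 KO. Pds5b read 6.97 and 8.11 in WT, 9.62, 8.97 and 8.43 in Evx1as KO and 9.26, 10.4 and 9.32 in EVX1 KO, which puts every knockout library above WT. Its changes were 0.23 (adjusted p = 0.162) and 0.32 (adjusted p = 0.156).

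When the knockouts were compared with each other, 6 members were higher and 1 was lower in EVX1 KO than in Evx1as KO, 15.9% of the 44 beside 22.0% of all genes (10.7% higher, 11.3% lower). Wapal was higher by 0.81 ± 0.12 (adjusted p = 0.00301) and Med4 by 0.76 ± 0.14 (adjusted p = 0.00774). Both kept this call in all 8 fits that left out 1 library, with adjusted p up to 0.0164 for Wapal and 0.0368 for Med4. Med20 was higher by 0.38 ± 0.10 (adjusted p = 0.0306), and Med25 was the member that was lower, with a difference of -0.26 ± 0.07 (adjusted p = 0.0383). Evx1as KO is the low group for Med20 and the high group for Med25. This comparison and the previous ones share libraries, so their values for a member are not independent.

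The other members called between the knockouts were Med1 and the kinase-module subunits Med13 and Med13l, which tether the kinase to the core. Med13l stood at 12.5 and 14.4 FPKM in WT, 11.2, 12.1 and 9.66 in Evx1as KO and 15.6, 14.6 and 15.3 in EVX1 KO, so that Evx1as KO was below and EVX1 KO above WT in every library. Between the knockouts it differed by 0.44 ± 0.10 (adjusted p = 0.0185), and against WT by -0.27 (adjusted p = 0.115) and 0.16 (adjusted p = 0.450). Med13 read 3.11 and 3.52 in WT, 2.86, 3.64 and 2.80 in Evx1as KO and 4.32, 4.39 and 4.32 in EVX1 KO. EVX1 KO was above every other library, by 0.39 ± 0.12 against Evx1as KO (adjusted p = 0.0450) and 0.31 against WT (adjusted p = 0.221), and 42.2% of the Med13 locus is overlapped by 4632419I22Rik (3.12 FPKM), so its reads are uncertain. Med1 read 12.7 and 13.8 in WT, 12.6, 13.3 and 11.4 in Evx1as KO and 15.5, 15.4 and 16.6 in EVX1 KO. EVX1 KO was again above all other libraries, by 0.33 ± 0.09 against Evx1as KO (adjusted p = 0.0332) and 0.24 against WT (adjusted p = 0.210). No cohesin ring, Stag or loader gene was called between the knockouts (1 of 7 at an unadjusted p under 0.05, Mau2). Leaving out libraries moved the count of higher members to 3 (without replicate 1 or 3 of either knockout) or 2 (without EVX1 KO replicate 2). The count of lower members became 0 without replicate 1 or 3 of Evx1as KO or replicate 2 of EVX1 KO, and 3 without EVX1 KO replicate 3. Over the 8 fits that left out 1 library, Med13 lost its call in 7, with adjusted p by limma up to 0.147. Med1 and Med20 each lost it in 5, Med25 in 4 and Med13l in 2.

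**Figure D3:**
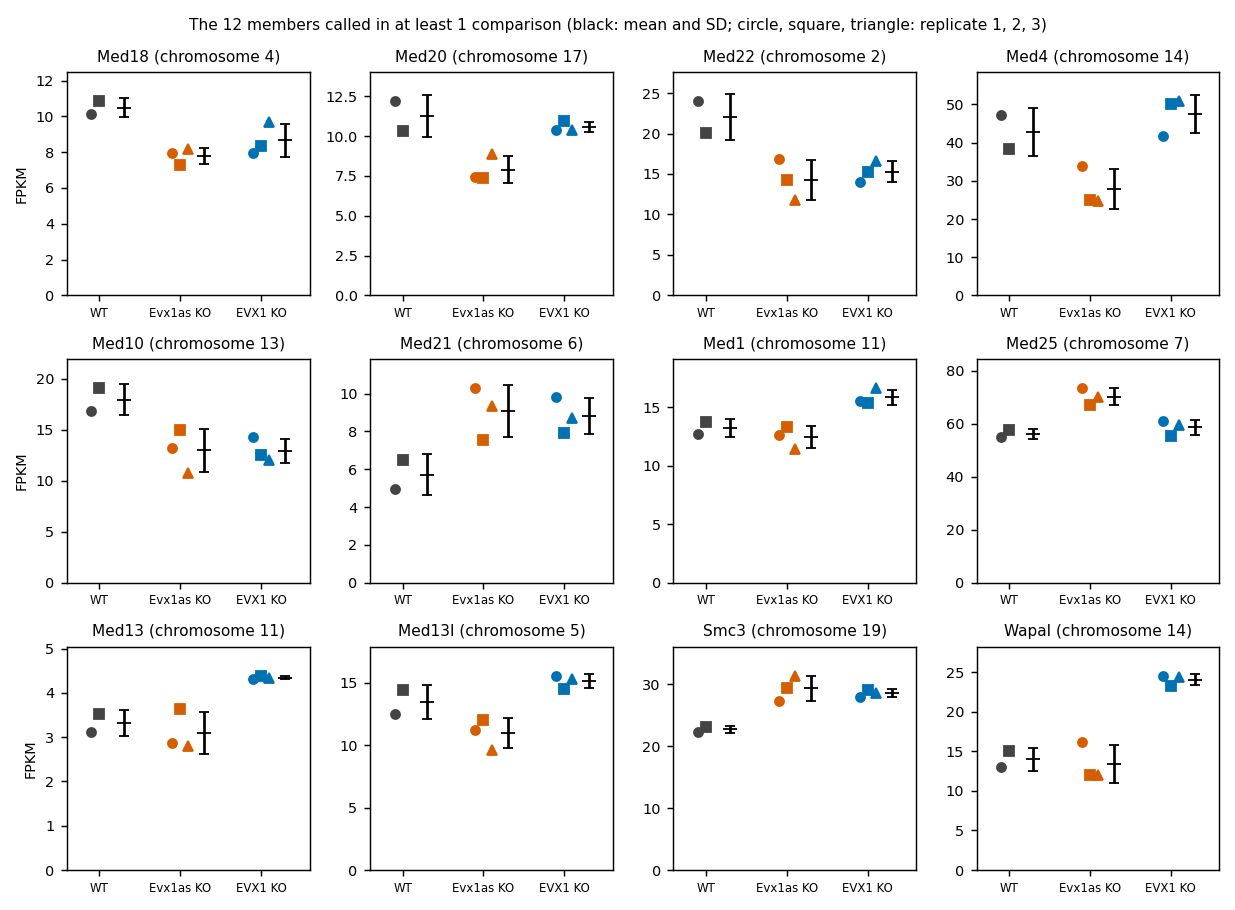
FPKM of the 12 members called in at least 1 comparison, one panel each, with every library as a point and each group's mean and SD in black. Wapal lies between 23.3 and 24.5 FPKM in the EVX1 KO libraries and 16.2 or lower elsewhere, Med4 is lowest in Evx1as KO replicates 2 and 3, and Med25 is highest in Evx1as KO.

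On chromosomes 8 and 14, which hold 5 members, the median over the genes of the chromosome differed between libraries. Whether the difference spans the whole chromosome or a part of it was not tested. Over 505 genes of chromosome 8 at 5 FPKM or more, the median log2 value relative to each gene's own mean was -0.38 and -0.30 in EVX1 KO replicates 1 and 2 and between 0.01 and 0.16 in the other 6 libraries. Over 323 genes of chromosome 14 it was -0.36 and -0.34 in Evx1as KO replicates 2 and 3, 0.13 in Evx1as KO replicate 1, 0.05 and -0.03 in WT and 0.16 to 0.18 in EVX1 KO. Replicates of 1 group thus differed from each other. Chromosome X, which holds Med12, Med14, Smc1a and Stag2, differed by less. Over its 230 genes the median was -0.06 and -0.04 in WT. It was -0.01 to 0.02 in Evx1as KO and 0.01 to 0.05 in EVX1 KO. With this median subtracted, the change in EVX1 KO against WT went from 0.39 to 0.30 for Med12 and from 0.32 to 0.24 for Stag2. For Med14 it went from 0.18 to 0.09 and for Smc1a from 0.17 to 0.09. The part of chromosome X in these values was not tested.

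On chromosome 14, Wapal was at -0.45 and -0.46 relative to its own mean in Evx1as KO replicates 2 and 3 and at 0.44 to 0.52 in EVX1 KO, and Med4 was at -0.57 and -0.59 and at 0.14 to 0.42. With the chromosome median of each library subtracted, Wapal remained higher in EVX1 KO, by 0.58 against WT (adjusted p = 0.0357) and by 0.45 against Evx1as KO (adjusted p = 0.00990), and its change in Evx1as KO against WT turned from -0.07 to 0.13. Med4 then differed by -0.40 in Evx1as KO against WT (adjusted p = 0.0262) and by 0.39 between the knockouts (adjusted p = 0.0218). Without Evx1as KO replicates 2 and 3, the remaining Evx1as KO library gave no call for any member against WT or EVX1 KO, 0 higher and 0 lower, in a fit that gives the lone library the spread of the rest. EVX1 KO against WT, which holds no Evx1as KO library and is touched only through the shared spread, also had 0 called in that fit. That omission, like that of EVX1 KO replicates 1 and 2, was chosen after seeing the data.

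On chromosome 8, the boundary factor Ctcf stood at 34.2 and 40.8 FPKM in WT, 42.1, 42.7 and 42.5 in Evx1as KO and 29.4, 32.1 and 41.5 in EVX1 KO. EVX1 KO replicates 1 and 2 were the lowest, and replicate 3 lay within the range of the other groups. The loader subunit Mau2 read 21.3 and 17.8 in WT, 18.4, 18.4 and 17.5 in Evx1as KO and 12.9, 13.6 and 17.0 in EVX1 KO, and Med26, which recruits elongation factors, read 11.4 and 12.3, then 12.7, 11.4 and 12.0, then 9.00, 9.40 and 14.4. For all 3 genes EVX1 KO replicates 1 and 2 were below every other library. None was called with all 8 libraries weighted equally. Without EVX1 KO replicate 3, Mau2 was called lower in EVX1 KO than in WT (-0.52, adjusted p = 0.0427), and Mau2 (-0.42, adjusted p = 0.0258) and Ctcf (-0.45, adjusted p = 0.0169) were called lower than in Evx1as KO. That fit gave 3 members lower than in Evx1as KO, and the remaining member was not followed singly. Before subtracting the chromosome median, EVX1 KO differed from WT by -0.13 for Ctcf, -0.41 for Mau2 (adjusted p = 0.130) and -0.13 for Med26. After it, the values were 0.13, -0.15 and 0.12. Without EVX1 KO replicates 1 and 2, no member was called in either comparison of the remaining EVX1 KO library (0 higher, 0 lower).

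**Figure D4:**
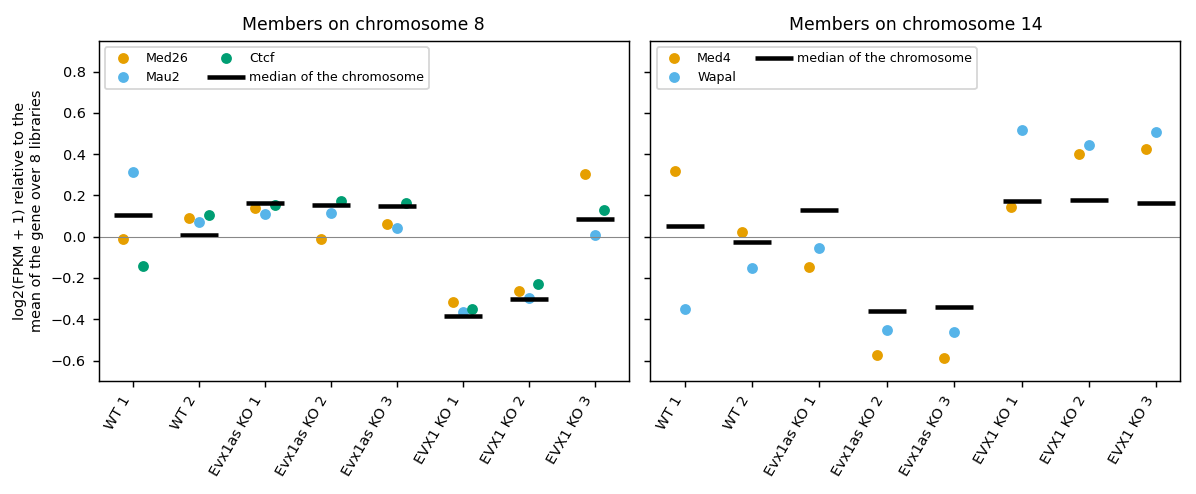
Log2(FPKM + 1) of the members on chromosomes 8 and 14 relative to each gene's mean over 8 libraries (points), with the median of that chromosome's genes in each library (black bars). Med26, Mau2 and Ctcf lie near the low bars of EVX1 KO replicates 1 and 2, and Med4 and Wapal near or under the low bars of Evx1as KO replicates 2 and 3, while Wapal lies above the bar in every EVX1 KO library.

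Vertebrate cells carry paired versions of several of these subunits, and 1 of each pair enters a given complex. Ratios of FPKM within a library were compared by two-sided exact permutation tests on log2 ratios over 15 comparisons, where 2 against 3 libraries cannot give a p under 0.2 and 3 against 3 not under 0.1, so none could pass 0.05, and the lowest adjusted p was 0.75. Cdk8 predominated over Cdk19 in every library, with a Cdk19 to Cdk8 ratio of 0.0730 to 0.138. Cdk19 stood at 1.50 and 1.71 FPKM in WT, 1.42, 1.44 and 1.79 in Evx1as KO and 2.14, 1.61 and 1.41 in EVX1 KO. Med12 likewise exceeded Med12l, whose ratio to Med12 was 0.0369 to 0.114. Med12l read 1.02 and 1.71 in WT, 0.746, 1.16 and 0.751 in Evx1as KO and 1.23, 1.13 and 1.35 in EVX1 KO. For the third pair the l form led, Med13l exceeding Med13 by 4.03-fold and 4.09-fold in WT, by 3.92, 3.31 and 3.45-fold in Evx1as KO and by 3.61, 3.32 and 3.54-fold in EVX1 KO. Every knockout library had a lower ratio than WT, with differences of -0.19 in Evx1as KO and -0.22 in EVX1 KO on the log2 scale (exact permutation p = 0.2 for each, the smallest possible). The overlap of the Med13 locus with 4632419I22Rik makes the reads of Med13, and so this ratio, uncertain.

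Stag1 and Stag2 give cohesin its contact with Ctcf. Stag1 stood at 10.0 and 11.2 FPKM in WT, 11.4, 11.0 and 10.1 in Evx1as KO and 10.2, 12.0 and 11.4 in EVX1 KO. Stag2 read 4.91 and 6.11 in WT, 6.89, 6.16 and 6.95 in Evx1as KO and 7.23, 7.54 and 6.58 in EVX1 KO. Stag1 overlapped between groups, while all 6 knockout libraries exceeded WT for Stag2, with log2 changes of 0.24 (adjusted p = 0.183) and 0.32 (adjusted p = 0.182). The Stag1 to Stag2 ratio was 2.04 and 1.84 in WT, 1.65, 1.79 and 1.46 in Evx1as KO and 1.41, 1.59 and 1.73 in EVX1 KO, lower than WT in each knockout library (-0.25 and -0.30 on the log2 scale, exact permutation p = 0.2 for each). The Pds5b to Pds5a ratio lay between 0.468 and 0.582 with overlapping groups.

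**Figure D5:**
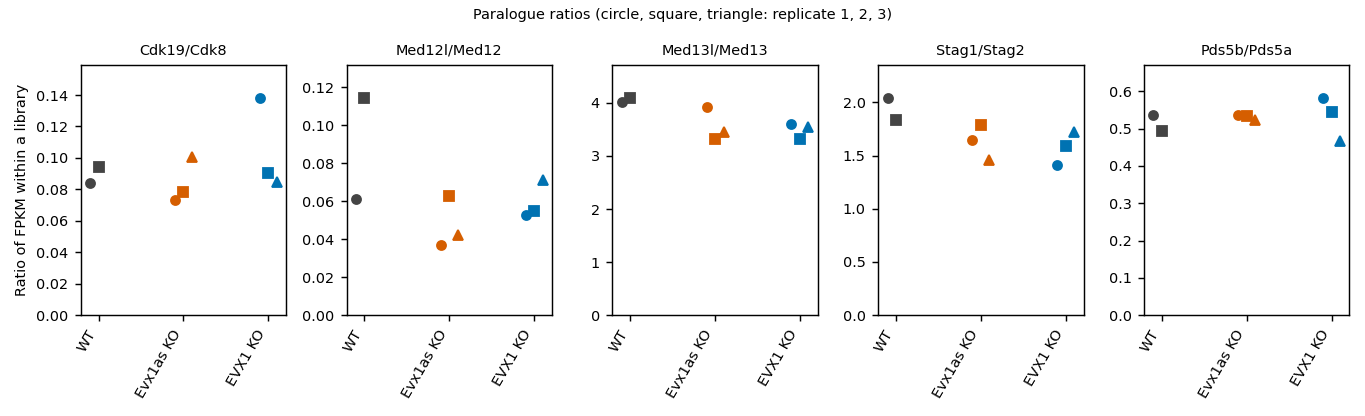
Ratio of FPKM of 5 paralogue pairs within each library (linear axes from 0), by group, with marker shape giving the replicate. Med13l to Med13 and Stag1 to Stag2 are highest in the WT libraries, and the other 3 ratios overlap between groups.

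Genes that work beside Mediator and cohesin were read from 8 lists, 97 genes tested. In Evx1as KO against WT 11 rose and 7 fell (18.6%), in EVX1 KO against WT 1 rose and 1 fell (2.06%), and between the knockouts 7 were higher and 10 lower in EVX1 KO (17.5%), each beside the 24.5%, 1.24% and 22.0% of all genes. By direction, all genes gave 13.0% higher and 11.4% lower, then 0.690% and 0.554%, then 10.7% and 11.3%. Counts by list, each of 6 to 16 genes, are to be read beside these shares. They were not tested against them and are no result about a complex. None of 12 other cohesion regulators was called by limma in any comparison, with 3, 2 and 3 of them at an unadjusted p under 0.05 in the 3 comparisons. Among 8 condensin subunits, which compact mitotic chromosomes with a ring related to cohesin, Ncapg and Ncapd2 rose in Evx1as KO, and Ncapd2 was lower in EVX1 KO than in Evx1as KO (-0.32, adjusted p = 0.0272). Ncapg was also the gene that rose in EVX1 KO against WT (0.72 ± 0.12, adjusted p = 0.0344), from 2.99 and 2.83 FPKM to 5.75, 5.32 and 5.25. Of 6 Smc5/6 subunits, Nsmce4a rose in Evx1as KO (0.45, adjusted p = 0.0193) and Nsmce1 was lower in EVX1 KO than in Evx1as KO (-0.45, adjusted p = 0.0473).

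Elongation factors act downstream of Mediator, where P-TEFb frees paused polymerase. Of 16 tested, 3 rose (Larp7, Ell2, Nelfe) and 2 fell (Hexim1, Aff1) in Evx1as KO against WT. Of all genes 13.0% rose and 11.4% fell. Hexim1 and Larp7 both belong to the particle that holds P-TEFb inactive, and they moved in opposite directions. Hexim1 stood at 6.56 and 7.20 FPKM in WT, 2.84, 3.79 and 3.34 in Evx1as KO and 4.81, 4.92 and 5.05 in EVX1 KO, and fell by 0.87 ± 0.13 (adjusted p = 0.00268). Larp7 stood at 39.2 and 41.7, 64.2, 70.9 and 81.2, and 64.1, 56.7 and 49.9, and rose by 0.81 ± 0.13 (adjusted p = 0.00359). In each case the Evx1as KO libraries were outside the range of both other groups, by a narrow margin for Larp7 replicate 1. Between the knockouts 3 elongation factors were higher in EVX1 KO, Aff1 (0.71), Hexim1 (0.46) and Aff4 (0.39), and 2 were lower, Nelfa (-0.38) and Nelfe (-0.28), with adjusted p from 0.0130 to 0.0461.

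Among 14 Integrator subunits, which cleave nascent RNA including enhancer RNA, 3 fell in Evx1as KO (Ints6, Ints7, Vwa9), beside 11.4% of all genes. Ints7 fell by 0.66 (adjusted p = 0.0108) from 29.9 and 26.0 FPKM to 17.4, 18.1 and 16.6, and read 24.4, 27.4 and 34.2 in EVX1 KO. Between the knockouts Ints6, Ints7 and Ints9 were higher and Ints10 lower in EVX1 KO, where Ints6 and Ints9 lie on chromosome 14, Ints10 on chromosome 8 and Ints7 on chromosome 1. Over 470 genes of chromosome 1, which holds no member, the median relative to each gene's mean was 0.12 to 0.14 in EVX1 KO, -0.10 to -0.09 in Evx1as KO and 0.02 and -0.10 in WT, and its part in the Ints7 values was not tested. Of 13 polymerase II subunits, Polr2d fell in Evx1as KO (-0.54, adjusted p = 0.0241) and Polr2l fell in EVX1 KO against WT (-0.67, adjusted p = 0.0442), and Polr2c, on chromosome 8, and Polr2h were lower in EVX1 KO than in Evx1as KO. Of 15 TFIID subunits, the complex that marks the promoter start, Taf4a and Taf10 rose and Taf11 fell in Evx1as KO, and Taf4a and Taf10 were lower in EVX1 KO than in Evx1as KO. Of 13 enhancer acetylation, methylation and looping factors, Kdm1a, Kmt2c and Wdr5 rose in Evx1as KO. Wdr5, a core subunit of the histone H3 lysine methyltransferases, stood at 38.3 and 39.9 FPKM in WT, 52.7, 49.9 and 49.3 in Evx1as KO and 38.2, 37.6 and 40.5 in EVX1 KO. Evx1as KO was above the other 2 groups, by 0.36 against WT (adjusted p = 0.0131), and the difference of EVX1 KO from Evx1as KO was -0.38 (adjusted p = 0.00825). Ncoa6, a coactivator of nuclear receptors, was higher in EVX1 KO than in Evx1as KO (0.34, adjusted p = 0.0393).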

How the data were processed

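RNA of 8 libraries was sequenced from poly(A)-selected RNA with a stranded TruSeq kit, per the labels' protocols. The authors deposited 1 table of FPKM per gene, and the submitters' processing notes name CASAVA, TopHat2 2.0.11 and the builds mm10 and mm9 with no role. How FPKM was computed, on which annotation and whether by strand is not stated there. Only 5 of 44 members overlapped their RefSeq position on GRCm38.p6, so no position from the table is printed, its coordinates served only for overlaps between its own loci and for chromosome names, and promoters are those of RefSeq. Symbols on several lines (6 members) had the same values and were used once. No read counts are in the table, so depth in reads is unknown and counting error cannot be computed.

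Log2(FPKM + 1) of the 13188 genes that reached 1 FPKM in 2 or more libraries entered 1 model with a mean per group over all 8 libraries (limma 3.58.1, R 4.3.3), with moderated two-sided tests, a trend of variance with level and Benjamini-Hochberg adjustment over all genes. Groups and replicate numbers came from the labels, and no batch is given there. Steps were checked on simulated data. Tables and exact permutation tests used Python 3.11.15, pandas 2.3.3, numpy 2.4.6 and scipy 1.17.1, and figures matplotlib 3.10.9. Chromosome medians used genes averaging 5 FPKM or more. Members and lists were chosen with earlier results of these data known. Values in every library are given for members called in any comparison, for Med12, Med1, Med14, Smc1a, Smc3, Rad21, Nipbl and Ctcf, for paralogue pairs and for the 3 largest changes in each comparison. In lists of neighbouring genes, up to 3 called genes with the largest change per list and comparison are named. Outside this rule, and after their values were seen, Mau2 and Med26 are given per library with Ctcf, whose chromosome they share, and Ell2, Nelfa, Nelfe and Ints9 are named to complete counts. Alternatives were another pseudocount, no filter, other fits and scalings, a replicate block, and libraries left out.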

Additional observations from a re-analysis of the deposited data

How the results depend on the processing

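Alternative values were followed for part of the members. In each comparison these were the members called, the 3 with the largest change, and Wapal, Med4, Mau2, Ctcf and Med12. Of 550 such values, 423 kept their direction and side of the threshold, 111 lost a call, 7 gained one and 9, all of differences that were not called, changed sign. Among the members followed, the gains were Mau2 (lower) in EVX1 KO against WT and Mau2 and Ctcf (lower) between the knockouts, each with array weights and without EVX1 KO replicate 3, and Med12 (higher) in EVX1 KO against WT with array weights. The counts below are over all members and include gains of members not followed singly. In Evx1as KO against WT (3 higher, 5 lower, 3230 genes called), no filter gave 1 lower, and leaving out single libraries gave 0 to 3 higher, 0 to 5 lower and 1421 to 3414 genes. In EVX1 KO against WT (1 higher, 0 lower, 164 genes), members higher became 0 with no filter (28 genes), with only these 2 groups fitted (27 genes) and with no intensity trend (78 genes), array weights gave 4 higher, 1 lower and 1148 genes, and leaving out single libraries gave 0 to 1 higher, 0 to 1 lower and 4 to 634 genes. Between the knockouts (6 higher, 1 lower, 2903 genes), members lower became 2 with no filter, 0 with chromosome centring or no trend and 4 with array weights (5552 genes), and leaving out single libraries gave 2 to 5 higher, 0 to 3 lower and 1409 to 2666 genes. The cause of these shifts was not tested.

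Omissions chosen after seeing the data gave these counts. Without Evx1as KO replicates 2 and 3 there were 0 higher and 0 lower in each comparison, with 1208, 27 and 785 genes called. Without EVX1 KO replicates 1 and 2 there were 0 higher and 0 lower in EVX1 KO against WT (8 genes) and against Evx1as KO (729 genes). Fewer libraries enter these fits.

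Sign changes in Evx1as KO against WT were Mau2 to 0.019 without WT replicate 1 (range over single omissions -0.22 to 0.019), and Wapal to 0.13 with chromosome centring, 0.027 without WT replicate 2 (range -0.21 to 0.027) and 0.20 without Evx1as KO replicates 2 and 3. In EVX1 KO against WT, Ctcf became 0.13 with centring and 0.15 without EVX1 KO replicates 1 and 2, and Med4 -0.0079 with centring. Between the knockouts, centring gave 0.042 for Ctcf and 0.045 for Mau2.

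The labels share replicate numbers, but same-numbered libraries correlated at only -0.0985 to 0.0759 in their deviations, and Evx1as KO replicate 2 did not correlate best with its own number. These values do not show that the numbers pair the samples. They cannot exclude it, because deviations from the mean of so few libraries are tied to each other. With a replicate block there were 0 higher and 3 lower members in Evx1as KO against WT, 0 higher in EVX1 KO against WT (28 genes called) and 3 higher and 0 lower between the knockouts. Read numbers are unknown, so how far depth limits members under 5 FPKM (Med12l, Cdk19, Med13 and Med7) was not measured.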
